A study of Mus musculus with 6 samples.

Results

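The marrow niche factors described here are 8 genes of the reticular stroma of bone marrow: *Cxcl12*, *Kitl*, *Lepr*, *Foxc1*, *Ebf3*, *Vcam1*, *Angpt1* and *Il7*. Members were the genes whose name matched 1 of these symbols in the 6 deposited expression tables, with values of the same name summed. Of the 8 genes, 6 had a named feature among the 48733 named genes, and *Cxcl12* and *Vcam1* did not. Each of those 2 lay inside a locus that the assembler left unnamed, and the value of that locus is given instead. Expression is in FPKM, the fragments of a gene scaled to its length and to all fragments mapped in the library.

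RNA-seq was performed on 3 libraries labelled bone and 3 labelled osteoblasts, all from mice of CC016/GeniUnc, an inbred strain of the Collaborative Cross. By the methods, bone was the femur after the marrow had been removed. The osteoblasts were grown from the adherent stromal cells of that marrow during 8 days with dexamethasone (10 nM), ascorbic acid (50 µg/ml) and beta-glycerophosphate (10 mM), a mixture that induces mineralizing osteoblasts. No transgene or knockout is given for either group. Cultures of this kind can hold any adherent marrow cell, and the methods give 3 mice, without saying which library came from which animal, and no age.

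CXCL12-abundant reticular cells, also known as LepR+ stromal cells, are perivascular mesenchymal cells of the marrow that hold blood stem cells in place and include precursors of osteoblasts and adipocytes. Through the chemokine CXCL12, the growth factor KITL (stem cell factor), the adhesion molecule VCAM1, the TIE2 ligand ANGPT1 and the cytokine IL7, they retain and feed stem cells, B cell precursors and other progenitors. The leptin receptor (*Lepr*) marks these cells. The transcription factors FOXC1 and EBF3 maintain their identity, and EBF3 also keeps the niche free of bone.

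Markers of the cells in each library did not divide by label. The β-globin gene *Hbb-bt*, a product of red cell precursors, was at 7.05, 3.58 and 34838 FPKM in bone 1, 2 and 3 and 3.43, 34268 and 48650 FPKM in osteoblasts 1, 2 and 3 (label and replicate number). It was above 1000 FPKM in bone 3 and osteoblasts 2 and 3, which are called the *Hbb-bt*-rich libraries below. *Sost*, made by the osteocytes of bone, was at most 0.198 FPKM in bone 1 and 2 and osteoblasts 1, and between 15.8 and 22.7 FPKM in the others. The osteocyte gene *Dmp1* ran the other way, at 50.0 to 127 FPKM in those 3 libraries and 22.5 to 24.2 FPKM in the others, and *Phex* overlapped. *Hbb-bt* and *Sost* go against the labels of bone 1 and 2 and osteoblasts 2 and 3, and *Dmp1* did not divide the libraries by label either, so each library is named by its label only. The depth, inferred from the ratio of coverage to FPKM, was 13566667 to 22586667 read pairs. At that depth 3 pairs on a 1 kb transcript give 0.133 to 0.221 FPKM (counting error only). Unnamed features took 71.5% of all FPKM in bone 2 and 65.0% in osteoblasts 1, against 27.4 to 30.7% in the other 4 libraries.

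Promoters of 4 members are shown because in FPKM *Kitl* and *Foxc1* ranked the 6 libraries in the same order, while *Lepr* and *Ebf3* ranked them otherwise. They are RefSeq sequences on GRCm38.p6, from 250 bases before to 50 bases after the annotated start, read in the direction of the gene. The windows are chr10:100015571-100015870 (plus strand) for *Kitl*, chr13:31806396-31806695 (plus) for *Foxc1*, chr4:101717157-101717456 (plus) for *Lepr* and chr7:137314396-137314695 (minus) for *Ebf3*. Capitals mark matches on either strand to the EBF core CCCNNGGG, the forkhead core TAAACA, the TATA box TATAAA, the GC box GGGCGG and the CCAAT box CCAAT.
Kitl: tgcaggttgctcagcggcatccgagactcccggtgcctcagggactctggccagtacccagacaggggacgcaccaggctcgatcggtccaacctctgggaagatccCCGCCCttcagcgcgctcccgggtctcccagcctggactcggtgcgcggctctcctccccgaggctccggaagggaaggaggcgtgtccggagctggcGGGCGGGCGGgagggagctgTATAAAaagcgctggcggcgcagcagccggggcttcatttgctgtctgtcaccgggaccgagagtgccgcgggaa
Foxc1: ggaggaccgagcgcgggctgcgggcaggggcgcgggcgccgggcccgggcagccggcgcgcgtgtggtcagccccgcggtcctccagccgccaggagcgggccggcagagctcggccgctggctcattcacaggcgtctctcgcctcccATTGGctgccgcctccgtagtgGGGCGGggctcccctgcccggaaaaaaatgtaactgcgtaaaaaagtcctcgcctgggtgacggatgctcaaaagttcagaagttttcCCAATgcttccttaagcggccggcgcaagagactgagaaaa
Lepr: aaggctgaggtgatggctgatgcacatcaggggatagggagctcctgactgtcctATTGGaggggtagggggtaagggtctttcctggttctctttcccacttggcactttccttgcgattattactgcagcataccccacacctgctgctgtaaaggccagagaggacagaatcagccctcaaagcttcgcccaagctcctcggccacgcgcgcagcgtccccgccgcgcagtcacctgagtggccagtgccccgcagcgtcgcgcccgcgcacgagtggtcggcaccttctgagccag
Ebf3: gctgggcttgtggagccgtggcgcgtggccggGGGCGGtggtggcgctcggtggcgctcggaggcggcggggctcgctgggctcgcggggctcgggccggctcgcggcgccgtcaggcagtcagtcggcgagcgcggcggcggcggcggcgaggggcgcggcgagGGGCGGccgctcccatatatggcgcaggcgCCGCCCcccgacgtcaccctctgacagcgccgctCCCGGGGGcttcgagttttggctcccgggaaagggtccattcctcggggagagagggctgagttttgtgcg

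The promoter of *Kitl* held a TATA box 25 bases before the start and 3 GC boxes, of which 2 overlap. That of *Foxc1* held 1 GC box and 2 CCAAT boxes. *Lepr* had 1 CCAAT box in this window, and the window of a second annotated start of *Lepr* held 1 GC box. *Ebf3* had 3 GC boxes and 1 EBF core beginning 21 bases before the start. None of the 4 held the forkhead core. Among all 32851 promoters of the table, 13.7% held the EBF core, 13.4% the forkhead core, 13.6% the TATA box, 35.7% the GC box and 37.4% the CCAAT box. The GC content was 68.7% for *Kitl*, 67.3% for *Foxc1*, 61.3% for *Lepr* and 77.0% for *Ebf3*, against a median of 52.7% over all promoters. Of the motifs searched, *Kitl* and *Foxc1* had the GC box in common, which *Ebf3* and the second window of *Lepr* also held, and no match overlapped one of another motif.

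The secreted and membrane-bound factors are described first. *Kitl* (chr10:100015630-100100416, plus strand of GRCm38), whose product activates the KIT receptor of blood stem cells, mast cells and melanocytes, was at 15.7, 6.50 and 2.19 FPKM in bone 1, 2 and 3. In osteoblasts 1, 2 and 3 it was at 10.5, 2.94 and 3.13 FPKM. The values of the labels overlapped, with means of 8.13 ± 6.90 FPKM in bone and 5.53 ± 4.33 FPKM in osteoblasts (SD, n = 3 each). The 3 lowest values were those of the *Hbb-bt*-rich libraries, and the highest value was 7.17 times the lowest.

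*Angpt1* (chr15:42424727-42676977, minus strand), encoding a ligand that stabilizes vessels through the receptor TIE2, was at 11.7, 3.36 and 0.770 FPKM in bone 1, 2 and 3. It was at 3.18, 1.86 and 2.25 FPKM in osteoblasts 1, 2 and 3. Bone replicate 1 stood far above the rest and bone 3 below them, so that *Angpt1* had the widest range of the members, 15.2-fold. The mean was 5.28 ± 5.72 FPKM in bone and 2.43 ± 0.679 FPKM in osteoblasts (SD, n = 3 each). Again the 3 lowest values were those of the *Hbb-bt*-rich libraries.

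*Il7* (chr3:7569994-7613760, minus strand), the growth factor of early B and T cells, was the lowest of the 6 named members. It was at 1.16, 0.391 and 0.102 FPKM in bone 1, 2 and 3, and at 0.858, 0.250 and 0.598 FPKM in osteoblasts 1, 2 and 3. Its mean of 0.560 FPKM over the libraries was below the minimum of 1 FPKM set for the test, and the value of bone 3 was below the level that 3 read pairs on a 1 kb transcript would give. The labels overlapped, and so did the *Hbb-bt*-rich and other libraries.

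No value can be given for *Cxcl12* itself. The unnamed locus that spans it (chr6:117167759-117212766, plus strand) contains no other RefSeq gene on GRCm38.p6, where *Cxcl12* lies at chr6:117168535-117181368. The locus was at 320, 86.7 and 214 FPKM in bone 1, 2 and 3 and at 142, 266 and 203 FPKM in osteoblasts 1, 2 and 3. In every library it was far above each of the 6 named members, whose highest value was 15.7 FPKM (*Kitl* in bone 1). Its FPKM was 19.9 to 43.3 times that of *Lepr*, which was not the highest named member in every library. Bone replicate 1 was highest and bone 2 lowest, so the labels overlapped, with means of 207 ± 117 and 204 ± 62.1 FPKM (SD, n = 3 each).

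The unnamed locus over *Vcam1* (chr3:116108646-116230483, minus strand) also spans 3 lncRNAs that RefSeq annotates, which are features of their own on the opposite strand at no more than 0.0678 FPKM. *Vcam1* (chr3:116110020-116129688) is its 1 protein-coding gene. VCAM1 binds the integrin VLA-4 on blood cells and keeps them in the marrow. The locus was at 49.7, 15.4 and 52.6 FPKM in bone 1, 2 and 3, and at 35.6, 82.6 and 89.0 FPKM in osteoblasts 1, 2 and 3. Its 3 highest values were those of the *Hbb-bt*-rich libraries, the reverse of the order of *Kitl*, *Angpt1* and *Foxc1*. The means were 39.2 ± 20.7 FPKM in bone and 69.1 ± 29.2 FPKM in osteoblasts (SD, n = 3 each), and the labels overlapped.

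**Figure D1:**
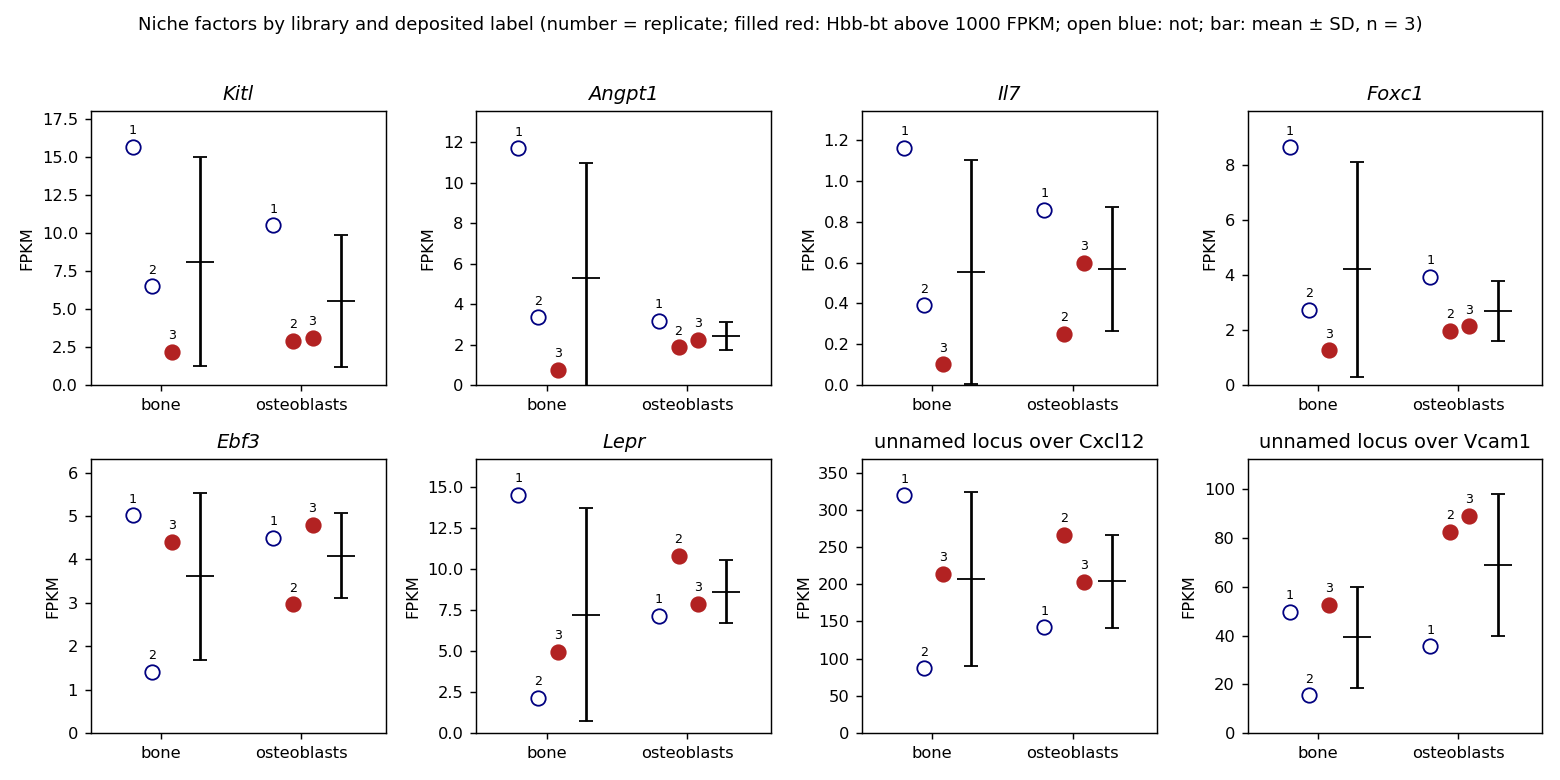
FPKM (linear axis) of the 6 named members and of the 2 unnamed loci, by label, with the replicate number above each point. Filled points are the libraries with *Hbb-bt* above 1000 FPKM, and bars give the mean ± SD (n = 3), cut at 0 where they reach below it. For *Kitl*, *Angpt1* and *Foxc1* every filled point lies below every open one, whereas the labels overlap in all panels.

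The leptin receptor itself had another pattern. *Lepr* (chr4:101717404-101815352, plus strand) was at 14.5, 2.12 and 4.94 FPKM in bone 1, 2 and 3 and at 7.14, 10.8 and 7.86 FPKM in osteoblasts 1, 2 and 3. In FPKM bone replicates 1 and 2, of the same label and both poor in *Hbb-bt*, were the highest and lowest of all. The osteoblasts libraries fell between them, with means of 7.18 ± 6.48 FPKM in bone and 8.60 ± 1.93 FPKM in osteoblasts (SD, n = 3 each). After scaling to named genes bone 3 was lowest at 3.67, with bone 2 at 3.87. *Leprot*, a gene whose first exons overlap those of *Lepr*, was a separate feature at 19.9 to 45.7 FPKM.

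The transcription factors also differed from each other. *Foxc1* (chr13:31806633-31812476, plus strand), required to form and keep the reticular cells, was at 8.63, 2.72 and 1.26 FPKM in bone 1, 2 and 3 and at 3.93, 1.98 and 2.13 FPKM in osteoblasts 1, 2 and 3. Its 3 lowest values were those of the *Hbb-bt*-rich libraries, and in FPKM its order of libraries was that of *Kitl*. The mean was 4.20 ± 3.90 FPKM in bone and 2.68 ± 1.09 FPKM in osteoblasts (SD, n = 3 each).

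*Ebf3* (chr7:137193673-137314445, minus strand), which restrains the osteoblast program in the same cells, was at 5.02, 1.41 and 4.41 FPKM in bone 1, 2 and 3 and at 4.50, 2.97 and 4.80 FPKM in osteoblasts 1, 2 and 3. In FPKM it had the narrowest range of the members, 3.55-fold, and 1 low library, bone 2. The means were 3.61 ± 1.93 and 4.09 ± 0.983 FPKM (SD, n = 3 each). After scaling to named genes osteoblasts 2 was lowest at 2.24, with bone 2 at 2.58. Overlapping the span of *Ebf3*, without regard to strand, 31 unnamed features summed to 8.78, 1.65 and 26.9 FPKM in bone 1, 2 and 3. In osteoblasts 1, 2 and 3 they summed to 2.39, 24.6 and 25.8 FPKM. The corresponding 23 unnamed features over *Kitl* summed to 3.23, 1.50 and 7.18 FPKM in bone 1, 2 and 3. In osteoblasts 1, 2 and 3 they summed to 1.51, 11.8 and 11.5 FPKM. They exceeded named *Kitl* in every *Hbb-bt*-rich library and were below it in the others. The sums over *Ebf3* exceeded named *Ebf3* in every library but osteoblasts 1. The order, range, shares and ratios given for *Kitl* and *Ebf3* are therefore those of their named features alone. These sums were highest in the *Hbb-bt*-rich libraries for both genes, and whether reads were divided between named and unnamed features was not tested. Genes on the opposite strand overlap *Ebf3*, *Angpt1* and *Il7* and were listed at no more than 0.730, 0.0931 and 0.331 FPKM, and without strand their reads cannot be told apart from those of the member.

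Because the named and unnamed fractions differed between libraries, the order of the libraries was also read after rescaling to the sum of named genes and to the 75th percentile. *Kitl*, *Angpt1* and *Foxc1* had their 3 lowest values in the *Hbb-bt*-rich libraries on all 3 scales. *Kitl* and *Foxc1* shared their full order in FPKM only. On both rescaled axes osteoblasts 1 was highest for *Kitl* and bone 1 for *Foxc1*. *Il7* had its 3 lowest values in the *Hbb-bt*-rich libraries on both rescaled axes but not in FPKM. *Lepr*, *Ebf3* and the locus over *Cxcl12* overlapped on all 3. The locus over *Vcam1* was higher in the *Hbb-bt*-rich libraries in FPKM and after 75th percentile scaling, but not after scaling to named genes. Such an order was common among the 12112 genes tested: in FPKM 16.9% were lower and 38.4% higher in all 3 *Hbb-bt*-rich libraries, and after scaling to named genes 48.6% were lower and 21.4% higher. After 75th percentile scaling 32.1% were lower and 37.1% higher.

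Relative to each other the members shifted as well. Of the summed FPKM of the 6 named members, *Kitl* made up 27.7, 39.4 and 16.0% in bone 1, 2 and 3 and 34.9, 14.1 and 15.1% in osteoblasts 1, 2 and 3. *Lepr* made up 25.6, 12.8 and 36.1% and 23.7, 51.9 and 37.8% in the same order. *Lepr* was therefore the largest of the 6 in the *Hbb-bt*-rich libraries and *Kitl* in the others. *Angpt1* contributed 5.63 to 20.7%, *Foxc1* 9.23 to 16.5%, *Ebf3* 8.57 to 32.3% and *Il7* 0.743 to 2.88%. By label, the share of *Kitl* was 27.7 ± 11.7% in bone and 21.4 ± 11.7% in osteoblasts, and that of *Lepr* was 24.8 ± 11.7% and 37.8 ± 14.1% (SD, n = 3 each).

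The ratio of *Kitl* to *Lepr*, which does not depend on the scaling of a library, was 1.08, 3.07 and 0.443 in bone 1, 2 and 3 and 1.47, 0.273 and 0.398 in osteoblasts 1, 2 and 3. For the named features alone, it was above 1 in the libraries poor in *Hbb-bt* and below 1 in the rich ones. *Foxc1* over *Ebf3* was 1.72, 1.92 and 0.286 in bone and 0.874, 0.667 and 0.444 in osteoblasts in the order of the replicates. Also for the named features alone, this ratio was lowest in the same 3 libraries. *Lepr* over *Ebf3* overlapped, at 1.12 to 3.64. The ratio of *Kitl* to *Foxc1* varied least of these, from 1.47 to 2.68. It was also lower in the *Hbb-bt*-rich libraries, at 1.47 to 1.73 against 1.82 to 2.68 in the others.

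**Figure D2:**
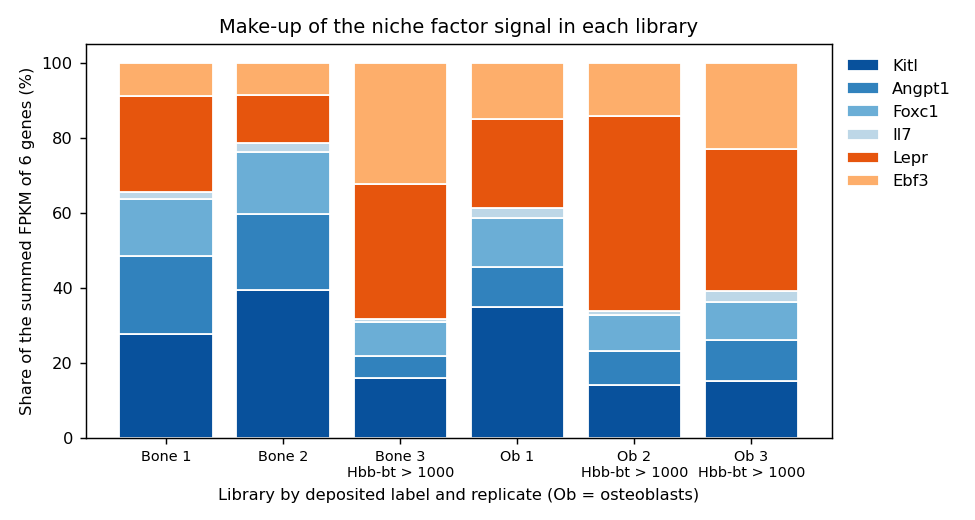
Share (%) of the summed FPKM of the 6 named members taken by each member, 1 bar per library, with the *Hbb-bt*-rich libraries marked. *Lepr* (dark orange) takes 36.1 to 51.9% in the marked libraries and 12.8 to 25.6% in the others, and *Kitl* (darkest blue) 14.1 to 16.0% and 27.7 to 39.4%.

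To determine whether the niche factors differed between bone and osteoblasts, all 12112 genes with a mean of at least 1 FPKM were compared with limma on log2(FPKM + 1), a scale that understates the change of low genes. No gene passed an adjusted p of 0.05 (0.0% called), and 17 had an unadjusted p under 0.05. Accordingly, 0 of the 5 members tested were called. In FPKM the osteoblasts and bone libraries also overlapped for all 5, where 0.479% of genes were higher in every osteoblasts library and 0.438% lower. The median difference of all genes was 0.12.

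The log2 differences, osteoblasts minus bone, were -0.36 (SE 0.68) for *Kitl*, -0.44 (SE 0.67) for *Angpt1* and -0.27 (SE 0.57) for *Foxc1*. They were 0.52 (SE 0.60) for *Lepr* and 0.23 (SE 0.48) for *Ebf3*, and the limma adjusted p was 0.999 for each member. The 95% intervals ran from -1.91 to 1.18 for *Kitl* and from -0.83 to 1.87 for *Lepr*, so that differences of more than 1 log2 unit remained within them. With the unnamed loci added to the table, the difference was 0.12 (SE 0.65) for that over *Cxcl12* and 0.88 (SE 0.64) for that over *Vcam1* (limma adjusted p = 0.999 for both). After scaling to named genes, all 3 osteoblasts libraries were above all bone libraries for the locus over *Vcam1*, as were 2.18% of the genes tested (0.339% were below).

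The comparison rests on libraries that go against their labels. Leaving out osteoblasts 2 and 3 gave *Kitl* a difference of 0.65, *Foxc1* 0.19 and the locus over *Cxcl12* -0.35, the opposite signs. Leaving out bone 1 and 2 instead gave *Kitl* 0.84, *Angpt1* 0.94, *Foxc1* 0.66 and *Ebf3* -0.11, again with the sign reversed. Each of these fits leaves 1 library under a label, whose spread is taken from the other label, so calls were not read from them. Without bone 1 alone, *Kitl* changed to 0.23, *Angpt1* to 0.29 and *Foxc1* to 0.30. *Lepr* changed to -0.018 and *Ebf3* to -0.18 without bone 2. Calls over all genes appeared in 2 of the 6 fits with 1 library left out, 77 without bone 3 and 300 without osteoblasts 1, and none was a member.

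**Figure D3:**
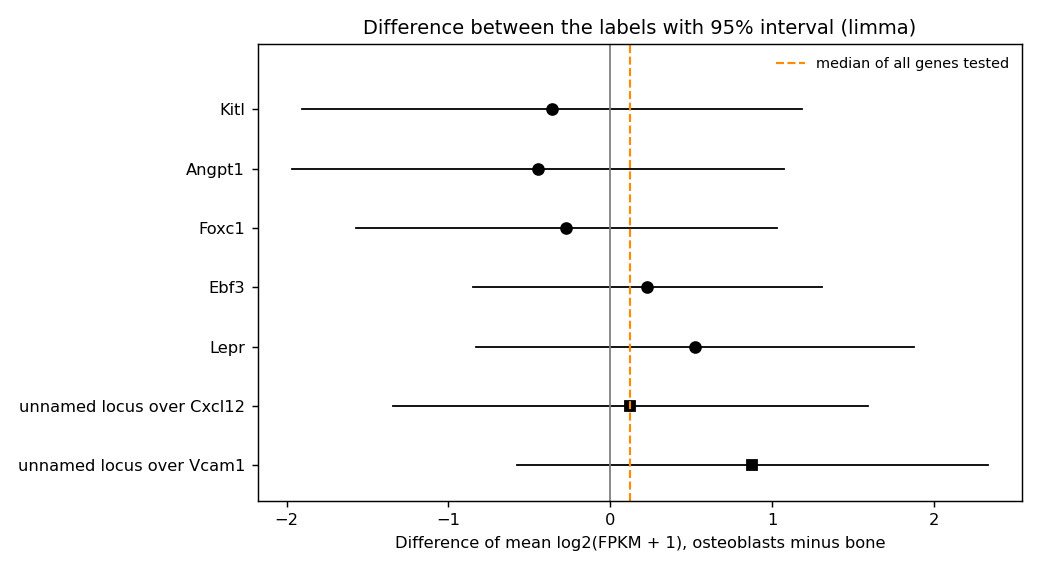
Difference of mean log2(FPKM + 1), osteoblasts minus bone, with the limma 95% interval, for the 5 members tested (circles) and the 2 unnamed loci (squares). The dashed line is the median of all genes tested (0.12), and every interval includes 0.

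The partners of the niche factors were measured in the same libraries, and limma called 0 genes in each of the lists that follow. Of 10 receptor genes, 8 were tested, with a median log2 difference of 0.55 against 0.12 for all genes. *Cxcr4*, the CXCL12 receptor of blood cells, was at 48.2, 35.0 and 79.4 FPKM in bone 1, 2 and 3 and at 28.9, 87.7 and 107 FPKM in osteoblasts 1, 2 and 3. *Kit*, the receptor of KITL, was at 3.06, 1.59 and 8.08 FPKM and at 4.06, 15.7 and 13.7 FPKM in the same order. In FPKM both had their 3 highest values in the *Hbb-bt*-rich libraries, where *Kitl* was lowest, but after scaling to named genes both overlapped.

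The VLA-4 subunits, which bind VCAM1, went different ways. *Itga4* was at 12.8, 6.34 and 15.1 FPKM in bone 1, 2 and 3 and at 5.34, 22.7 and 22.8 FPKM in osteoblasts 1, 2 and 3. The β1 subunit *Itgb1*, found on most adherent cells, was at 196, 110 and 19.0 FPKM and at 107, 27.2 and 28.9 FPKM in the same order. *Itgb7*, the other partner of *Itga4*, was at most 0.730 FPKM in the libraries poor in *Hbb-bt* and 25.3 to 31.8 FPKM in the rich ones. In FPKM *Itga4*, *Itgb7* and the locus over *Vcam1* were highest in the same 3 libraries and *Itgb1* lowest, and after scaling to named genes *Itga4* and the locus overlapped.

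*Tek*, the ANGPT1 receptor TIE2 of endothelial cells, was at 0.104, 0 and 1.71 FPKM in bone 1, 2 and 3 and at 0.0716, 2.05 and 3.14 FPKM in osteoblasts 1, 2 and 3. *Ackr3*, a scavenger receptor of CXCL12, was at 3.39 to 7.69 FPKM and overlapped between the same libraries. *Il7r*, the receptor of IL7, was at 0.406 to 1.47 FPKM and not tested. In FPKM and after 75th percentile scaling, 6 of the 8 receptors tested had their 3 highest values in the *Hbb-bt*-rich libraries and 1 its 3 lowest, where the shares of all genes were 38.4% and 16.9% in FPKM. After scaling to named genes 3 were higher, 2 lower and 3 overlapped, against 21.4% and 48.6% of all genes.

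Among 4 genes of leptin signalling with a named feature, 3 were tested. *Stat3*, the transcription factor that the leptin receptor activates, was at 28.9 to 54.7 FPKM and *Jak2*, its kinase, at 4.25 to 12.2 FPKM. Leptin itself (*Lep*), a hormone of fat cells, was at most 0.650 FPKM. The median log2 difference of the list was 0.03. In FPKM *Stat3*, *Jak2* and *Leprot*, the 3 tested, did not separate the *Hbb-bt*-rich libraries. After scaling to named genes all 3 were lower there, as were 48.6% of all genes. *Stat3* and *Leprot* were also lower there after 75th percentile scaling, as were 32.1% of all genes.

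Proteases that cleave the niche factors were tested as a list of 3. *Mmp9*, a neutrophil and osteoclast gelatinase that releases soluble KITL, was at 64.8, 2.96 and 263 FPKM in bone 1, 2 and 3 and at 30.2, 257 and 308 FPKM in osteoblasts 1, 2 and 3. *Dpp4*, which inactivates CXCL12, was at 0 FPKM in all 3 libraries poor in *Hbb-bt* and at 1.44 to 3.23 FPKM in the others. *Adam17*, which sheds VCAM1, was at 4.12 to 10.4 FPKM in the *Hbb-bt*-rich libraries and 12.7 to 19.6 FPKM in the others. The median log2 difference of the 3 was 0.83.

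Relatives of the transcription factors were also read. *Foxc2*, the closest paralog of *Foxc1*, was at 3.29, 1.15 and 0.464 FPKM in bone 1, 2 and 3 and at 1.96, 0.505 and 0.500 FPKM in osteoblasts 1, 2 and 3, with its 3 lowest values in the *Hbb-bt*-rich libraries as for *Foxc1*. *Ebf1*, which acts in B cells and in stroma, was at 7.27 to 20.5 FPKM and overlapped in FPKM, but was lower in the *Hbb-bt*-rich libraries after scaling to named genes, which *Ebf3* was not. *Ebf2* was at most 2.38 FPKM. The median log2 difference of the 3 paralogs tested was -0.34.

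Of 18 other niche ligands listed, 15 had a named feature and 6 were tested, with a median log2 difference of -0.07. *Bmp4*, a bone-inducing signal, was at 11.8 and 15.6 FPKM in osteoblasts 1 and bone 1 and at 2.93 to 3.65 FPKM in the other 4 libraries. *Jag1*, a Notch ligand, was at 4.34 to 11.0 FPKM in the libraries poor in *Hbb-bt* and 2.06 to 2.63 FPKM in the rich ones. *Tgfb1*, which keeps stem cells quiescent, was at 12.8 to 30.7 and 37.6 to 47.3 FPKM in the same order, and overlapped on both other scales. *Thpo*, thrombopoietin, was listed at 0 in all 6 libraries.

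Of 12 other genes known from reticular stroma, 10 were tested, with a median log2 difference of -0.14. *Adipoq*, which adipocyte-primed LepR+ cells express, was at 73.4, 9.16 and 37.7 FPKM in bone 1, 2 and 3 and at 33.5, 48.8 and 50.8 FPKM in osteoblasts 1, 2 and 3. In FPKM its highest and lowest libraries were those of *Lepr*. *Pdgfrb*, a receptor of perivascular cells, was at 26.8 to 63.3 FPKM in the libraries poor in *Hbb-bt* and 14.5 to 18.3 FPKM in the rich ones. *Grem1*, a BMP antagonist of skeletal stem cells, was at 20.0 to 37.5 and 0.536 to 1.64 FPKM in the same order. In FPKM, 4 of the 10 had their 3 lowest values in the *Hbb-bt*-rich libraries, 1 its 3 highest and 5 overlapped, where the shares of all genes were 16.9% and 38.4%. After scaling to named genes 8 were lower, 1 was higher and 1 overlapped, against 48.6% and 21.4% of all genes.

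Markers of other cells moved with these patterns. Summed over 8 neutrophil genes the level was 0.545 to 5.51 FPKM in bone 1 and 2 and osteoblasts 1 and 14283 to 17263 FPKM in the *Hbb-bt*-rich libraries. For 5 B lineage genes it was 0 to 0.264 and 106 to 113 FPKM, with *Cd79a* and *Cd79b* at 0 in the former. For 6 endothelial genes it was 0.447 to 5.76 and 91.0 to 105 FPKM. Macrophage markers ran the other way, with 5 genes at 1037 to 2035 and 303 to 394 FPKM, as did *Kitl*, *Angpt1* and *Foxc1*. Markers of osteoblasts (6 genes) summed to 3151 to 5043 FPKM over the 6 libraries, but went different ways. The matrix gene *Ibsp* was at 986 to 1278 and 43.1 to 91.3 FPKM, and the osteocalcin gene *Bglap2* at 264 to 513 and 1641 to 1959 FPKM, in the same order of libraries. In bulk RNA fewer cells of a type and less RNA per cell cannot be told apart, and the part of these cells in the levels of the niche factors was not tested.

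**Figure D4:**
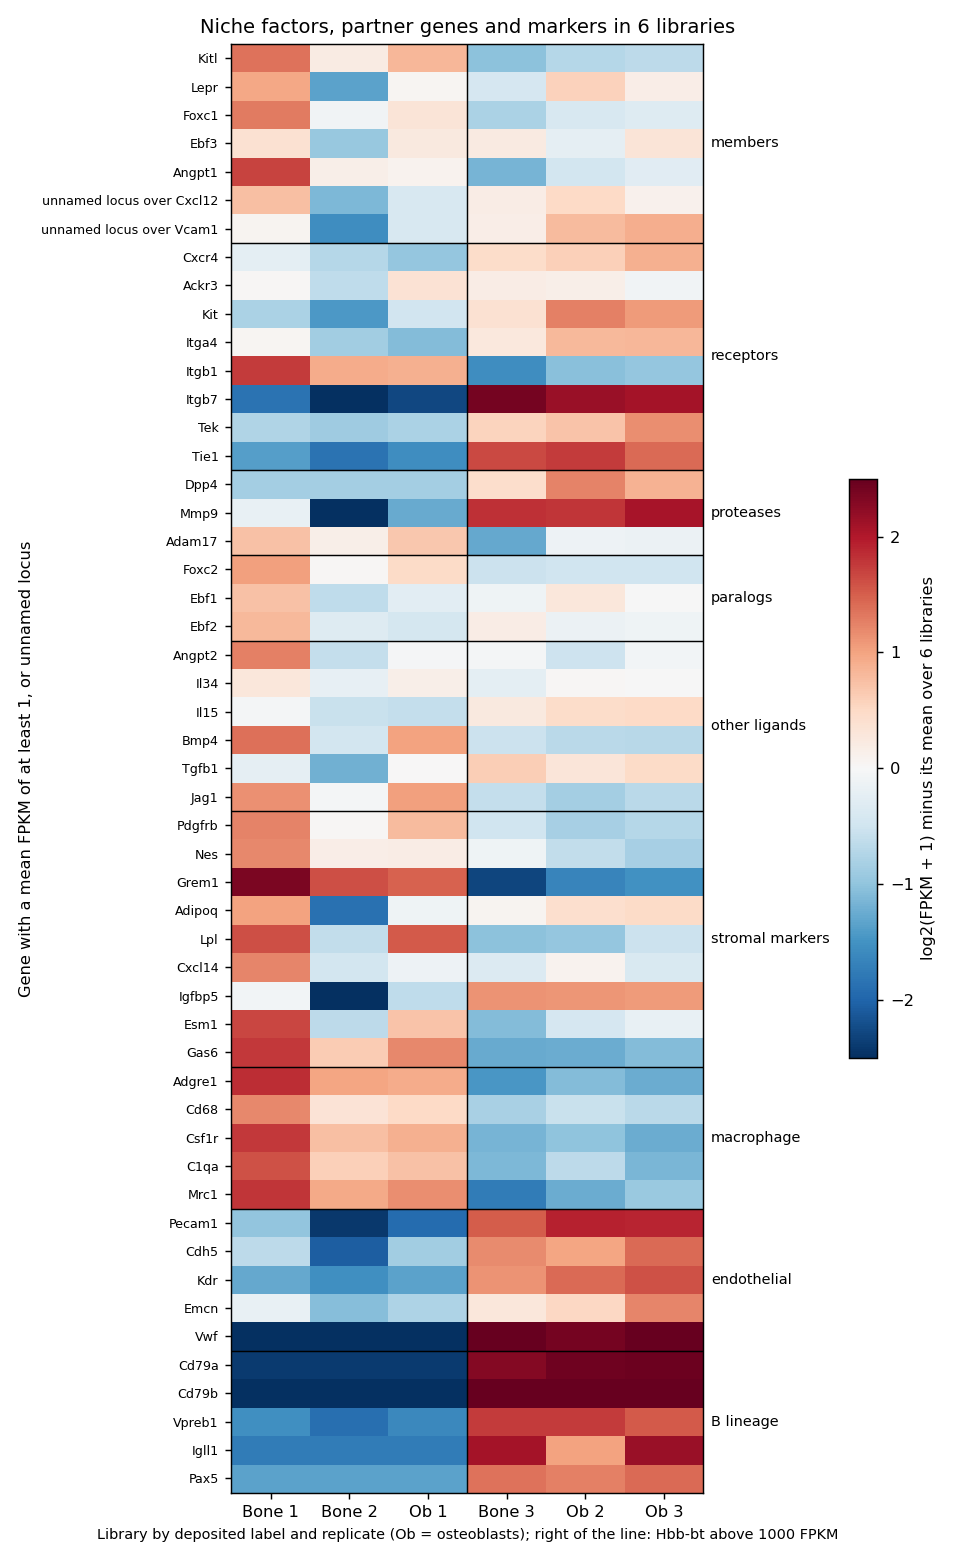
log2(FPKM + 1) of each gene minus its mean over the 6 libraries, from blue (low) to red (high), with the colour scale ending at 2.5. Columns are libraries, with the *Hbb-bt*-rich ones to the right of the line, and rows are members, partner genes and markers. *Kitl*, *Foxc1*, *Angpt1* and the macrophage genes are bluer on the right, and the locus over *Vcam1*, *Kit* and the endothelial and B lineage genes are redder there.

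Finally, the genes with the most similar pattern were identified from the root mean square difference of centred log2(FPKM + 1) over the 6 libraries, among 12111 others. For *Kitl* they were *Rbpsuh-rs3* (0.0881), *Itgav* (0.109) and *Ptpra* (0.111). *Foxc1* was followed most closely by *Fmo2* (0.0864) and *Angpt1* by *Ube2q2* (0.127). For *Ebf3* the nearest was *Pcnx* (0.0852), for *Lepr* *Bcl2a1a* (0.182) and for the locus over *Cxcl12* *Pex19* (0.114). The libraries share their depth and their unnamed fraction across all genes, so these values describe the likeness only.

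Between members, *Angpt1* and *Foxc1* were closest at 0.258, followed by *Kitl* and *Foxc1* at 0.316, the locus over *Cxcl12* and *Lepr* at 0.332, and *Kitl* and *Angpt1* at 0.384. *Lepr* and *Ebf3* were 0.521 apart, and *Kitl* and *Lepr* 0.992. The distance of *Lepr* from *Ebf3* exceeded the root mean square of *Ebf3* itself around its mean, 0.464, so *Lepr* was no closer to *Ebf3* than a flat gene would be, and it held place 5740 of 12111 in likeness to it. Read the other way, the distance was below the root mean square of *Lepr*, 0.739, and *Ebf3* held place 1622 in likeness to *Lepr*. *Foxc1* held place 41 in likeness to *Angpt1*, and *Angpt1* place 543 in likeness to *Foxc1*. A place thus depends on which gene of a pair is the reference. The locus over *Vcam1* was 0.571 from *Lepr* and 1.44 from *Kitl*.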

How the data were processed

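RNA-seq had been performed on 3 libraries labelled bone and 3 labelled osteoblasts. By the methods, the authors used a TruSeq RNA kit and aligned read pairs of 75 bp to GRCm38 with HISAT2 2.0.5. Features were assembled and quantified with StringTie 1.3.3, and the submitters' processing notes also list SAMtools 1.7. The authors deposited the coverage, FPKM and TPM of each feature, with no read counts. StringTie merges neighbouring transcripts, which can leave a gene without a named feature and divides reads between overlapping features. FPKM are scaled to all mapped reads, so they depend on the unnamed fraction of a library.

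Groups came from the labels, and no library was moved. Members, lists and thresholds were chosen with earlier results of these data known. Rows with the same name were summed, and depth was inferred from the ratio of coverage to FPKM. Genes with a mean of at least 1 FPKM were tested on log2(FPKM + 1) with limma 3.58.1 in R 4.3.3 (trended eBayes, Benjamini-Hochberg, threshold 0.05). The fit had first been tested on simulated data with an SD of 0.3 and changes of 2 log2 units. The median SD within a label was 0.56 in these data, so the simulation does not show the power of the test here. The p-values measure the spread between these libraries, which may be technical. Named genes were the members, the 3 nearest in pattern, and genes of lists written for receptors, leptin signalling, proteases, paralogs, ligands and markers. The lists also held erythroid, osteocyte and skeletal muscle genes (5, 4 and 3 with a named feature), whose summed FPKM were 3.53 to 7.29, 55.3 to 133 and 0.0324 to 1.09 in bone 1 and 2 and osteoblasts 1, and 35852 to 50353, 45.4 to 51.7 and 221 to 943 in the others. 1 marker of the B lineage list is not reported here and was left out of its sum. The loci over *Cxcl12* and *Vcam1* were added after seeing that these genes had no named feature. Promoters were matched by symbol for 5 of the 8 members, and those of *Angpt1*, *Il7* and *Vcam1* were not used here. Tables were handled in Python 3.11.15 (pandas 2.3.3, numpy 2.4.6) and drawn with matplotlib 3.10.9. The alternatives were pseudocounts of 0.1 and 0.01, a minimum of 0.1 FPKM or none, TPM, scaling to named genes or the 75th percentile, limma without a trend, a replicate block and the omission of libraries.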

Additional observations from a re-analysis of the deposited data

How the results depend on the processing

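The number of genes called by limma between the labels was 0 with every other pseudocount, filter, scaling and unit. It was 49 with the replicate block and 0 to 300 when 1 library was left out (77 without bone replicate 3, 300 without osteoblasts replicate 1). No member or locus was called in any fit, where the fits that left 1 library under a label could show little. Same-numbered libraries had correlations of 0.841, -0.747 and 0.83 in their deviations from the label means, and 3 of the 6 libraries correlated best with their own number, so the numbers do not establish pairs. In this balanced design the replicate block cannot move a difference, only its error.

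With 1 library left out, the log2 difference ran from -0.97 to 0.23 for *Kitl*, -1.14 to 0.29 for *Angpt1*, -0.74 to 0.30 for *Foxc1*, -0.018 to 1.14 for *Lepr*, -0.18 to 0.47 for *Ebf3*, -0.40 to 0.53 for the locus over *Cxcl12* and 0.32 to 1.29 for that over *Vcam1*. Without bone replicate 2 the locus over *Cxcl12* was at -0.40 and without osteoblasts replicate 2 at -0.09. Without the osteoblasts libraries with *Hbb-bt* above 1000 FPKM, *Kitl* was at 0.65, *Foxc1* at 0.19 and the locus over *Cxcl12* at -0.35. Without the bone libraries with *Hbb-bt* of at most 1000 FPKM, *Kitl* was at 0.84, *Angpt1* at 0.94, *Foxc1* at 0.66, *Ebf3* at -0.11 and the locus over *Cxcl12* at -0.12. Scaling to named genes gave this locus -0.067, and the median of all genes -0.03 in place of 0.12. The cause of these reversals was not tested. Of 77 differences under alternatives other than leaving out 1 library, 28 could not change by construction (filters, trend, block), and of the other 49, 40 had the sign of the main value. The mean share of *Ebf3* in bone was 16.6%, and 8.71% without bone replicate 3. Without counts, no interval can be given for a single FPKM, and values near 0.2 FPKM rest on few read pairs.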
